A study of Mus musculus with 36 samples.

Results

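The first hour of depolarisation in wild-type (WT) mouse cortical neurons was measured by RNA-seq. The comparison rests on 10 of the 36 libraries of the series, chosen by their titles and treatment labels: 5 WT 1h KCl libraries and 5 WT 2h TTX/APV libraries. Both groups were primary cortical neurons from E16.5 embryos, grown in culture for 7 days, and both are labelled wild type for Actl6b, which was not checked in the data. The WT 1h KCl neurons had 2 h in TTX and APV and 1 h in KCl. The WT 2h TTX/APV neurons had 2 h in TTX and APV and no KCl. Each title carries a code, and the same 5 codes (3-4, 3-7, 4-2, 4-3 and 4-4) occur in both groups, so a code was read as a culture that was split between the treatments. The series counts 5 WT biological replicates. Of the other libraries, 3 WT 6h KCl and 4 WT 7h TTX/APV libraries served to follow the changed transcripts to a later time, and 7 Actl6b-/- (KO) libraries at 2h TTX/APV served for levels.

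TTX blocks voltage-gated sodium channels and APV blocks NMDA receptors, so neurons in both are electrically silent and their activity-dependent transcription is low. A high concentration of KCl depolarises the membrane directly, opens voltage-gated calcium channels and lets calcium into the cell without a need for action potentials. Calcium-activated kinases then act on transcription factors already present in the nucleus, such as CREB, SRF and MEF2 proteins, and the early response genes they control (Fos, Npas4, Arc and the Egr genes among them) are transcribed before any new protein is needed. Some of the proteins made in this first wave are transcription factors that act on a second, later set of genes. The files list 115270 transcripts by identifier and do not pair them with genes, so the results describe transcripts by level, length and behaviour, and neither early response genes nor markers of neurons and other cell types could be looked up. The labelled cell type was therefore not checked against markers. In cultures of many cells, a lower level can come from fewer cells with a transcript or from less of it per cell, and these cannot be told apart.

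The WT 1h KCl libraries held 7314665 ± 420202 estimated counts and the WT 2h TTX/APV libraries 7006101 ± 697697 (SD, n = 5 each), a difference smaller than the spread (two-sided exact permutation p = 0.468). On the first principal component of log2 CPM (counts scaled to library size), with 20.2% of the variance, the KCl libraries lay between 44.5 and 78.8 and the TTX/APV libraries between -106.9 and -34.1. The TTX/APV library of code 3-4 lay farthest out, and was also the shallowest, with 5873349 counts. No pair of libraries within a group differed as little as sampling noise allows (chi-square per degree of freedom 7.82 to 13.8, where 1 is sampling noise alone).

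After 1 h of KCl a small part of the transcriptome differed, and in the fit of the 10 libraries the largest changes were mostly rises. Of 31673 transcripts with enough counts to be tested, 1438 (4.54%) differed between the WT 1h KCl and the WT 2h TTX/APV libraries at an adjusted p under 0.05 (edgeR's quasi-likelihood test, Benjamini-Hochberg over all transcripts tested). Of these, 806 were higher after KCl (2.54% of those tested) and 632 were lower (2%). With the culture code as a block, 436 were higher and 220 lower. With all 24 RNA-seq libraries in 1 fit, 952 were higher and 1342 lower, of a wider set of 47640 transcripts tested. Higher ones made up 56.1% of the calls in the fit of the 10 libraries, 66.5% with the block and 41.5% in the fit of 24. The higher transcripts had a median of 1.26 on the log2 scale and the lower ones -1.34, and the median over all transcripts was 0. By size of the log2 fold change, 292 higher and 341 lower transcripts lay between 1 and 2, and 109 and 81 between 2 and 3. The counts diverged beyond that. Between 3 and 4 lay 52 higher and 16 lower transcripts, between 4 and 5 lay 22 and 3, and at 5 or more lay 30 and 9. The size of a measurable fall is limited by the level in TTX/APV, a median of 4.04 TPM for the lower transcripts. The part of this limit in the split was not tested.

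A test against a change of 2-fold, rather than against no change, isolated the strongest part of the response (edgeR's glmTreat, adjusted p under 0.05). It called 175 transcripts higher (0.553% of those tested) and 63 lower (0.199%), 238 in all (0.751%). Among the 175 are pairs of identifiers of the same length with equal differences in every code, such as those of 2640 and of 6003 bases. The counts and medians of the 175 are therefore over identifiers, and such a pair enters them as separate transcripts. With the culture code as a block the same test called 88 higher and 10 lower. With all 24 RNA-seq libraries in 1 fit it called 205 and 199, of 47640 tested. The count of 63 was also sensitive to single libraries: it was 30 without the TTX/APV library of code 3-7 or of code 4-4, 38 without that of code 4-3, and 41 and 33 without the KCl libraries of codes 3-4 and 3-7. The 175 had a median log2 fold change of 2.77, in a range of 1.46 to 9.27, and the 63 a median of -2.44, in a range of -9.29 to -1.47. Most of the 175 were scarce in silenced neurons: the median transcript had 16.1 TPM (a level corrected for length and library size) after KCl and 1.64 TPM in TTX/APV, and 63 of them had under 1 TPM in TTX/APV. After KCl 108 of them had at least 10 TPM and 30 at least 50 TPM. The 63 had medians of 0.629 TPM after KCl and 3.8 TPM in TTX/APV, and 39 of them were under 1 TPM after KCl. Most other transcripts were measured well enough to bound their change: for 17294 of those tested (54.6%) the 95% interval of the log2 fold change lay within -1 and 1, and for 7220 (22.8%) within -0.5 and 0.5.

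**Figure D1:**
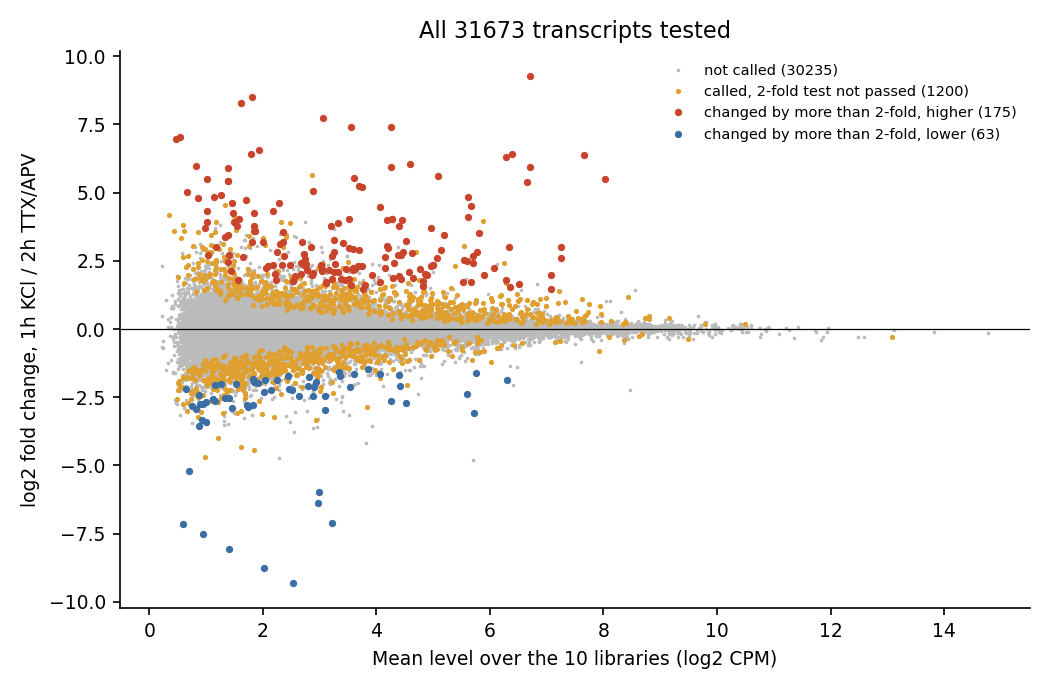
Log2 fold change (WT 1h KCl over WT 2h TTX/APV) against mean level in log2 CPM for the 31673 transcripts tested, each point a transcript. Red and blue points passed the test against 2-fold (175 higher, 63 lower), and orange points were called without passing it. The red points reach farther from 0 than the blue ones at levels above 4 log2 CPM. The mean level includes the KCl libraries, so a rise moves a point to the right and a fall to the left.

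Summed over each library, the 175 transcripts took 0.65, 0.567, 0.593, 0.665 and 0.616% of all TPM after KCl in codes 3-4, 3-7, 4-2, 4-3 and 4-4. In TTX/APV they took 0.0565, 0.0655, 0.0647, 0.0744 and 0.0667% in the same order of codes. The 63 transcripts took 0.00765 to 0.0114% of TPM after KCl and 0.0493 to 0.0555% in TTX/APV. Neither range overlaps between the groups, which follows from the choice of the transcripts on these libraries and is given as their size, not as a test. In KO neurons at 2h TTX/APV, the 175 took 0.0809 ± 0.0137% (SD, n = 7) and the 63 took 0.0523 ± 0.00314%. The TTX/APV values of WT neurons, 0.0655 ± 0.00638% for the 175 and 0.0526 ± 0.00233% for the 63 (SD, n = 5), helped choose these transcripts, so KO and WT were not tested against each other.

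The largest rise by the rule for named transcripts (the largest log2 fold change among called transcripts with at least 1 CPM on average, separate groups and 1 direction in all 5 codes) was that of ENSMUST00000023779.7, 2477 bases long. It had 198, 197, 211, 234 and 195 CPM after KCl in codes 3-4, 3-7, 4-2, 4-3 and 4-4, and 0, 0.664, 0.836, 0 and 0 CPM in TTX/APV. All KCl libraries were high and close to each other, and in TTX/APV the transcript was seen in 2 of 5 libraries, with 5 and 6 counts. The log2 fold change was 9.27 (SE 0.41, edgeR adjusted p = 2.18e-06), and the call was kept with the culture code as a block and without any 1 library. KO neurons at 2h TTX/APV had 0 to 1.72 TPM of it, as against 126 to 161 TPM in WT neurons after 1 h of KCl and 0 to 0.533 TPM in WT neurons at 2h TTX/APV.

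The next largest rise was that of ENSMUST00000125814.8, 886 bases long, a much scarcer transcript. It had 6.87, 8.79, 8.25, 2.53 and 5.74 CPM after KCl and was at 0 in all TTX/APV libraries. Code 4-3 gave the lowest KCl value. Against a floor of 0.0868 CPM, which 3 counts over the whole TTX/APV group would give, it was at least 74.1-fold higher (edgeR adjusted p = 0.00168, or 0.114 with the culture code as a block). Estimated counts are assigned by probability among transcripts that share sequence, so a listed 0 can be a matter of that assignment.

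Among the falls, ENSMUST00000211725.1, 493 bases long, was at 0 in all KCl libraries. In TTX/APV it had 19.5, 8.64, 11.8, 8.94 and 6.74 CPM in codes 3-4, 3-7, 4-2, 4-3 and 4-4. It was at least 133-fold lower after KCl, against a floor of 0.084 CPM over the KCl group (edgeR adjusted p = 7.66e-04, or 0.0823 with the culture code as a block). Without KCl, it was also at 0 in all WT 7h TTX/APV libraries but that of code 4-4 (23.8 TPM), so its absence was not confined to KCl. ENSMUST00000134465.7, 5244 bases long, rounded to 0 counts in all KCl libraries and had 7.64 ± 5.1 CPM in TTX/APV (SD, n = 5). The bound was at least 90.9-fold lower (edgeR adjusted p = 0.00649, or 0.105 with the culture code as a block). This transcript was also at 0 in all 4 WT 7h TTX/APV libraries and at 2.48e-05 TPM or less in all KO libraries, so the WT 2h TTX/APV group was the one that stood out.

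The first 12 rises by the same rule ran from 6.37 to 9.27 on the log2 scale, with lengths of 182 to 7165 bases and a median of 1088, and 4 of them were at 0 in all TTX/APV libraries. The first 12 falls ran from -9.29 to -4.31, with lengths of 493 to 5244 bases, and 5 of them were at 0 in all KCl libraries. The mean level of these 12 rises was at most 6.28 TPM in TTX/APV, and that of the 12 falls at most 1.32 TPM after KCl. Of all transcripts tested, 4 were at 0 counts in every TTX/APV library and 5 in every KCl library. They could enter the test only through the group where they were high, so that all of them were called says nothing further.

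Further transcripts among the 175 and the 63, those with the smallest p and those with the highest level, are described by length only and were chosen after their values were seen. A small p by itself favours transcripts that are even across cultures. The rise with the smallest p was a transcript of 662 bases with 242, 176, 233, 222 and 211 TPM after KCl in codes 3-4, 3-7, 4-2, 4-3 and 4-4. In TTX/APV it had 16.7, 21.2, 17.3, 20.7 and 19.2 TPM, so the lowest KCl value was far above the highest TTX/APV value. Its change was 3.44 on the log2 scale (SE 0.0982, edgeR adjusted p = 1.19e-07).

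A transcript of 3277 bases, whose counts were whole numbers in all libraries and so were not shared out among transcripts, was nearly absent from silenced neurons. It had 72.9, 60.3, 72.2, 95.2 and 78.2 TPM after KCl and 0.551, 1.33, 1.08, 0.775 and 0.785 TPM in TTX/APV. This was a change of 6.30 on the log2 scale (SE 0.192, edgeR adjusted p = 1.19e-07). A transcript of 2670 bases had 33.7 to 41.1 TPM after KCl and 4.08 to 5.73 TPM in TTX/APV, with a log2 fold change of 2.91 (SE 0.0903).

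Of the 175, the transcript with the most TPM after KCl, 631 bases long, had 613, 535, 599, 597 and 537 TPM after KCl. In TTX/APV it had 0, 9.63, 4.56, 10.1 and 7.07 TPM. The next, of 573 bases, had 262 to 502 TPM after KCl and was already present in silenced neurons, at 39.6 to 82.4 TPM. The third, of 2108 bases, had 281 to 346 TPM after KCl and 1.1 to 6.48 TPM in TTX/APV. Their log2 fold changes were 6.42, 2.82 and 6.37, in that order.

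The falls with the smallest p were smaller in size and concerned long transcripts. The first, of 15841 bases, had 0.376, 0.489, 0.418, 0.64 and 0.636 TPM after KCl, and 2.85, 3.43, 2.55, 3.07 and 3.23 TPM in TTX/APV (-2.62 on the log2 scale, SE 0.172, edgeR adjusted p = 1.47e-05). The second, of 3777 bases, had 2.91 to 4.44 TPM after KCl and 11.9 to 16.3 TPM in TTX/APV (-2.09 on the log2 scale, SE 0.155). The third, of 5376 bases, had 1.94 to 2.39 TPM after KCl and 4.76 to 7.07 TPM in TTX/APV (-1.47 on the log2 scale, SE 0.113). The 10 falls with the smallest p were 2339 to 15841 bases long, with a median of 4718.5, and the 10 rises with the smallest p were 662 to 5223 bases long, with a median of 2590.5. Over all 63 and all 175 the median lengths were 3386 and 2670 bases, beside 2706 over all transcripts tested. Among those of the 63 with the most TPM in TTX/APV, one of 4101 bases had 9.14 to 19.7 TPM after KCl and 37.5 to 54.2 TPM in TTX/APV.

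**Figure D2:**
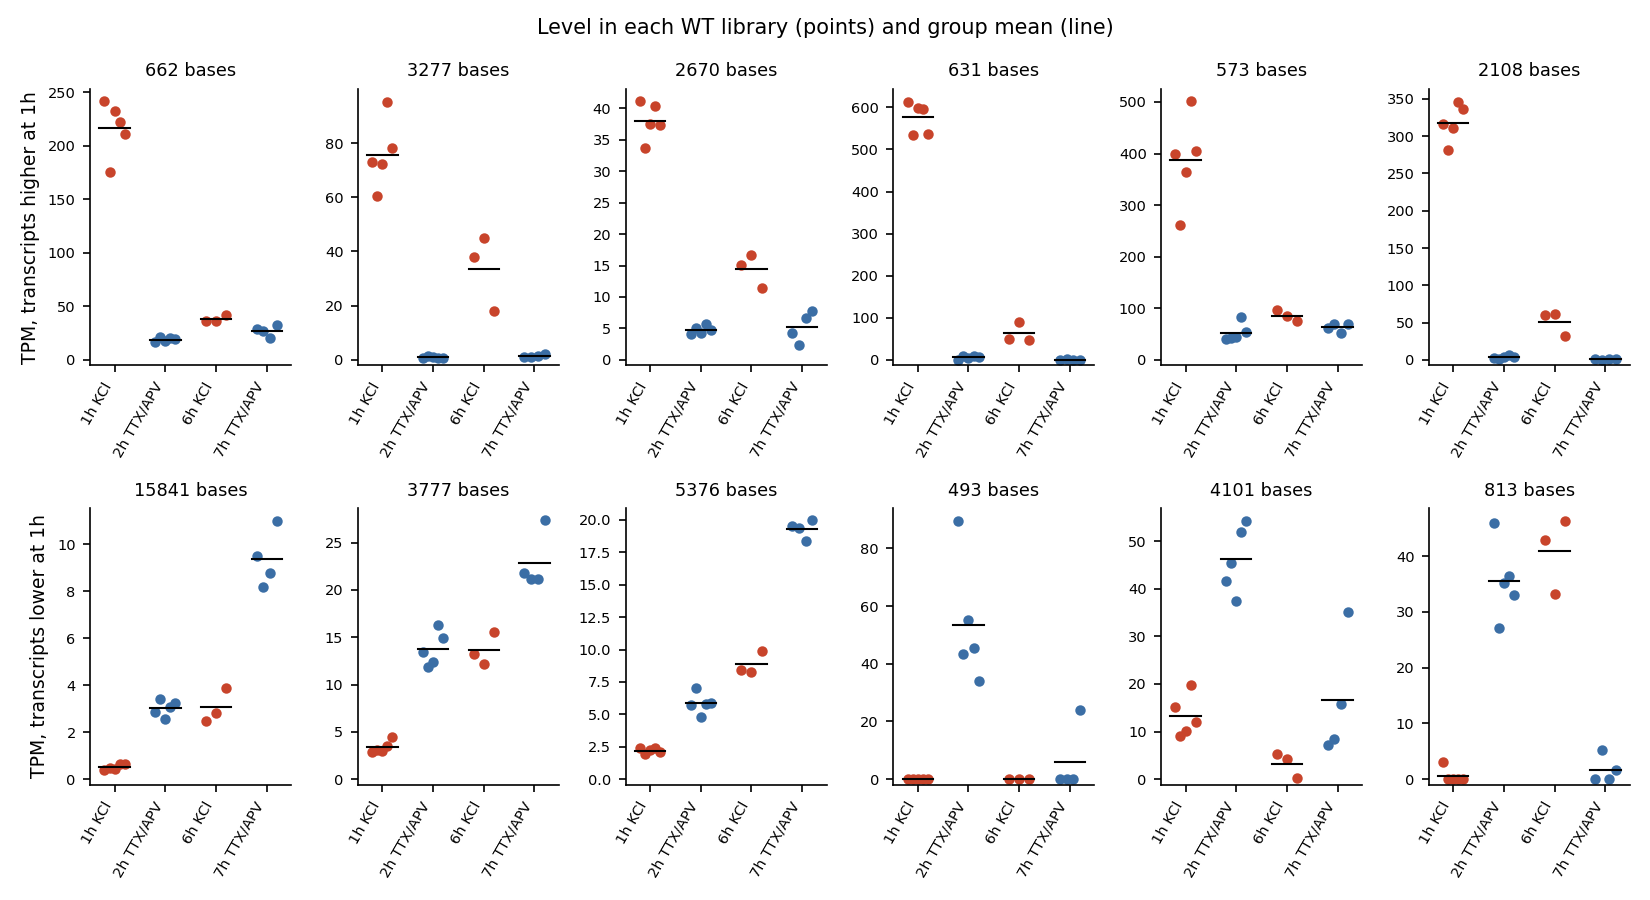
Level in TPM of 12 transcripts in each WT library, with the group mean as a line, at 1h KCl, 2h TTX/APV, 6h KCl and 7h TTX/APV (n = 5, 5, 3 and 4), on linear axes that differ between panels. The top row holds transcripts higher and the bottom row transcripts lower after 1 h of KCl, and in every panel the 1h KCl points lie apart from the 2h TTX/APV points.

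The median response lay close together in the 5 cultures. Within a code, the difference in log2 CPM between its KCl and its TTX/APV library had a median over the 175 of 2.76, 2.65, 2.5, 2.6 and 2.57 in codes 3-4, 3-7, 4-2, 4-3 and 4-4. Over the 63 the medians were -2.22, -2.23, -2.17, -2.09 and -2.21, and over all tested transcripts they lay between 0 and 0.01. Of the 806 transcripts called higher, 802 were higher after KCl in all 5 codes, and of the 632 called lower 630 were lower in all 5. Over all transcripts tested, 10.1% were higher and 9.24% lower in all 5 codes. The groups did not overlap for 782 of the 806 and 610 of the 632, where 4.05% of all transcripts tested had KCl libraries entirely above and 3.77% entirely below. The calls rest on this agreement, so these counts describe them and do not add support.

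**Figure D3:**
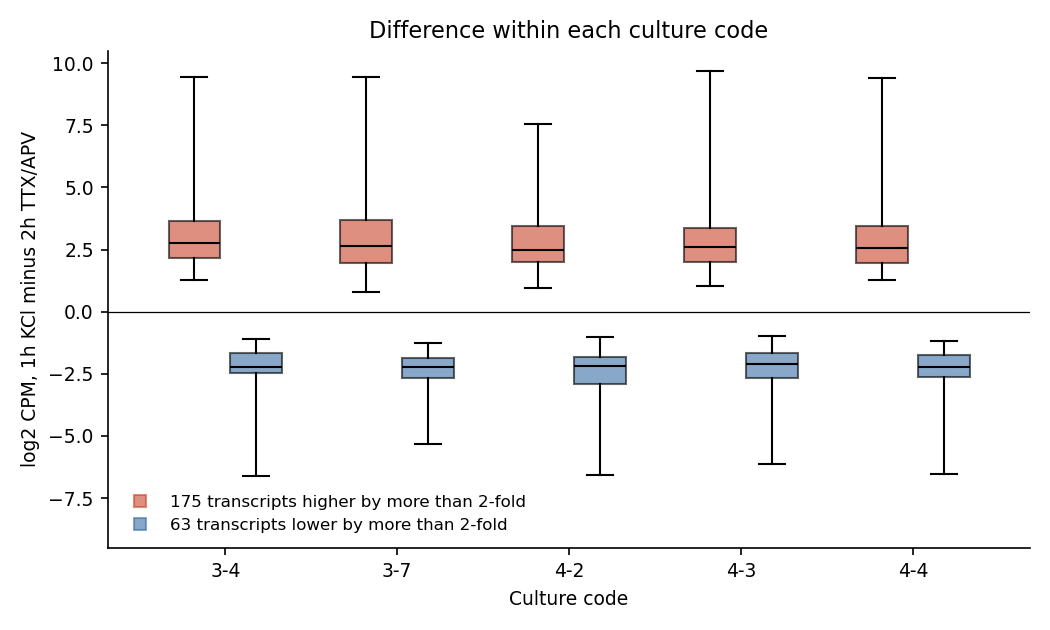
Difference in log2 CPM (WT 1h KCl minus WT 2h TTX/APV) within each culture code, for the 175 transcripts higher (red) and the 63 lower (blue) by more than 2-fold; boxes span the interquartile range with the median as a line, and whiskers reach the lowest and highest transcript. The medians lie between 2.5 and 2.76 for the red boxes and between -2.23 and -2.09 for the blue ones.

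A culture that did not take part in the choice gives a description free of that choice. The fit was repeated on the 8 libraries of 4 codes and the called transcripts were then read in the left-out pair. Of those called higher, 96.6 to 97.7% were higher after KCl in the left-out code, with medians of 1.22 to 1.64 on the log2 CPM scale. Of those called lower, 92 to 95.4% were lower in the left-out code, with medians of -1.37 to -1.11. Over all transcripts tested 49.1 to 49.4% were higher and 49.5 to 50.9% lower in a left-out code. Transcripts past the 2-fold test in 4 codes were higher in the left-out code in 96.5 to 97.7% of cases and lower in 77.1 to 96% of cases. The value of 77.1% came from code 4-2, for 27 of 35 transcripts. The sets held 456 to 552 transcripts called higher and 301 to 370 called lower.

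Codes beginning with 3 (2 cultures) and with 4 (3 cultures) may differ in a way the labels do not explain, so the response was compared between them. No transcript was called different in its response by the interaction contrast (edgeR, 0%), with a smallest adjusted p of 0.109. At an unadjusted p under 0.05 lay 1012 transcripts (3.2%), and DESeq2 gave 71 calls. With 2 cultures against 3, a lack of calls does not show that the responses were equal. Without single libraries 0 to 8 were called, the most without the TTX/APV libraries of codes 3-7 (8) and 3-4 (7). The 175 had a median response of 2.93 on the log2 scale in codes beginning with 3 and 2.79 in codes beginning with 4, and that of the 63 was -2.48 and -2.38. Both sets of transcripts were chosen on these libraries, so a response of like sign in all codes follows from the choice and adds no support. Tested within codes beginning with 4 alone, 166 transcripts were called higher and 36 lower. Within codes beginning with 3 none was called (edgeR, 2 libraries against 2), with 3177 transcripts at an unadjusted p under 0.05 and 517 calls by DESeq2.

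The shares called differed with level. Split by mean level over the 10 libraries into 4 classes of equal size, the highest class had 3.84% called higher and 0.922% lower. In the lowest class 1.59% were called higher and 2.39% lower. The KCl libraries enter this mean, so a rise moves a transcript toward a higher class and a fall toward a lower one. These shares therefore do not show that the direction of change depends on level. The median SE of the log2 fold change was 0.112 in the highest and 0.442 in the lowest class, and the part of this precision in the shares was not tested. By the 2-fold test the share of rises was highest in the third class of level, 0.808%, against 0.594% in the highest and 0.366% in the lowest class. By length, 1.35% of transcripts of up to 500 bases were called higher and 0.772% lower, and of those over 4000 bases 2.95% and 2.12%. Over the 5 length classes, shortest first, the shares called higher were 1.35, 2.39, 1.78, 2.78 and 2.95%, not a steady order. By the 2-fold test the shares of rises were 0.676, 0.644, 0.455, 0.62 and 0.453%. These were not in a steady order either, and the first rests on 7 transcripts. Median levels also differed, 4.11 log2 CPM in the longest and 1.89 in the shortest class. The part of level in the difference by length was not tested.

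**Figure D4:**
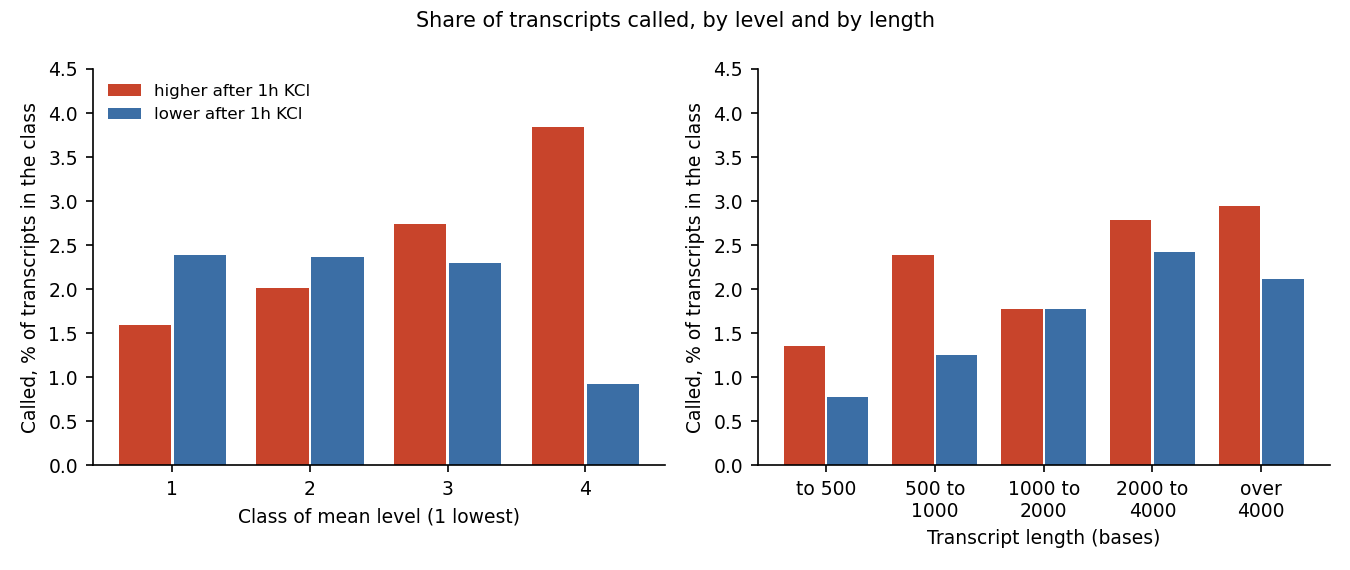
Share of the transcripts in a class that were called higher (red) or lower (blue) after 1 h of KCl, by class of mean level (left, 4 classes of equal size, 1 is the lowest) and by transcript length in bases (right). The share called higher is 3.84% in the top class of level and 1.59% in the lowest, and the share called lower 0.922% and 2.39%. The mean level includes the KCl libraries, so the change itself shifts the class of a transcript.

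Counts that were whole numbers in all 10 libraries (to within 0.001) mark transcripts whose reads were not divided among several. They made up 919 of the transcripts tested (2.9%), and 5.22% of them were called higher and 2.39% lower. Among the other 30754, 2.46% were called higher and 1.98% lower. The whole-number transcripts also had a higher median level, 3.26 against 2.82 log2 CPM. They varied less between replicates, with a median biological coefficient of variation of 0.197 against 0.283. The part of level and of this variation in the shares was not tested.

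The makeup of the libraries differed slightly, by a margin that did not survive the loss of most single libraries. The 100 most abundant transcripts held 19 ± 0.457% of counts after KCl and 20.2 ± 0.667% in TTX/APV (SD, n = 5 each; two-sided exact permutation p = 0.0238, adjusted over 4 library values 0.0476), lower after KCl in 4 of 5 codes. The mean transcript length weighted by counts was 4552 ± 54 bases after KCl and 4425 ± 68.1 bases in TTX/APV (exact permutation p = 0.0238, adjusted 0.0476), higher in 5 of 5 codes. Neither passed without the TTX/APV library of code 3-4 or 4-2, or without the KCl library of code 3-4, 4-2, 4-3 or 4-4, nor did the length without the TTX/APV library of code 3-7. An exact sign-flip test over the paired codes cannot go below p = 0.0625 with 5 pairs. The number of transcripts with at least 1 CPM was 34608 ± 642 after KCl and 35354 ± 659 in TTX/APV, lower in 5 of 5 codes, and did not pass the test (exact permutation p = 0.111, adjusted 0.148).

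The later experiment gives the fate of these transcripts in libraries that did not choose them, although the codes of the 6h KCl libraries (3-7, 4-2 and 4-4) occur in the early experiment too. In 1 fit over the 17 WT libraries, 46790 transcripts were tested, and 8.19% were higher and 6.73% lower in WT 6h KCl than in WT 7h TTX/APV neurons. Of the 175 early rises, 92 (52.6%) were called higher at 6 h and 2 were called lower, with a median log2 fold change of 1.1 at 6 h and 2.79 at 1 h in this fit. Of the 63 early falls, 25 (39.7%) were called lower at 6 h and 1 was called higher, with a median over the 63 of -0.7 at 6 h and -2.42 at 1 h. The 6h KCl and 7h TTX/APV libraries were shallower, with 3627450 to 4051922 and 3569516 to 4020984 estimated counts.

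The response at 6 h was smaller than at 1 h for 96 of the 175 rises and larger for 0 by the interaction contrast (edgeR adjusted p under 0.05, where 4.02% of all transcripts had a lower and 4.64% a higher response at 6 h). Scaling by library totals moved the 6 h median over all transcripts to -0.26 on the log2 scale, beside -0.05 with TMM, and then 79 of the 175 were called higher and 33 of the 63 lower at 6 h. Of the 63 falls, the response was less negative at 6 h for 40 (33 scaled by library totals), the 1 that was called higher at 6 h included, and more negative for 1 of 2795 bases, with -4.69 at 6 h and -2.44 at 1 h. Transcripts chosen for a large change at 1 h favour this direction by their choice. Taken by both tests, 57 rises were called at 6 h with no call of a difference, 35 were called at 6 h with a smaller response, 59 were not called at 6 h and had a smaller response, and 22 had neither call. The 2 that were lower at 6 h also had a called difference.

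The courses of individual transcripts differed. The 662-base transcript had 36.1 to 41.6 TPM in 6h KCl and 20.8 to 32.3 TPM in 7h TTX/APV neurons, a log2 fold change of 0.6 at 6 h (6 h minus 1 h response -2.86, edgeR adjusted p = 1.49e-06). The 3277-base transcript had 18.2 to 44.8 TPM in 6h KCl neurons, above the 0.916 to 2.35 TPM at 7h TTX/APV, and its response too was smaller at 6 h (6 h minus 1 h response -1.54, edgeR adjusted p = 0.0445). The 2108-base transcript had 32 to 62.1 TPM in 6h KCl and 0.41 to 1.53 TPM in 7h TTX/APV neurons, a log2 fold change of 5.69, and its 6 h response was not called different from its 1 h response (adjusted p = 0.594), although its TPM after KCl was lower at 6 h than at 1 h in every library. ENSMUST00000023779.7 had 39.5, 41.5 and 21.8 TPM in 6h KCl neurons and 0 to 1.79 TPM at 7h TTX/APV (log2 fold change 5.62, SE 0.659, edgeR adjusted p = 2.53e-05).

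Among the falls, the levels of the 15841-base transcript were 2.49 to 3.87 TPM in 6h KCl and 8.16 to 11 TPM in 7h TTX/APV neurons, lower again by -1.47 on the log2 scale (edgeR adjusted p = 2.33e-05). Both ranges lie above its 0.376 to 0.64 TPM at 1h KCl, and its level in silenced neurons was higher at 7 h than at 2 h in every library. One transcript of 813 bases went in opposite directions at the 2 times, and was chosen for that after its values were seen. It had 3.14, 0, 0, 0 and 0 TPM after 1 h of KCl and 27.2 to 45.9 TPM at 2h TTX/APV. At the later time it had 33.3 to 46.3 TPM after 6 h of KCl and 0 to 5.18 TPM at 7h TTX/APV (log2 fold change 4.57 at 6 h, edgeR adjusted p = 0.00638). Its counts were not whole numbers in all 10 libraries compared, so a listed 0 can be a matter of assignment among transcripts that share sequence.

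**Figure D5:**
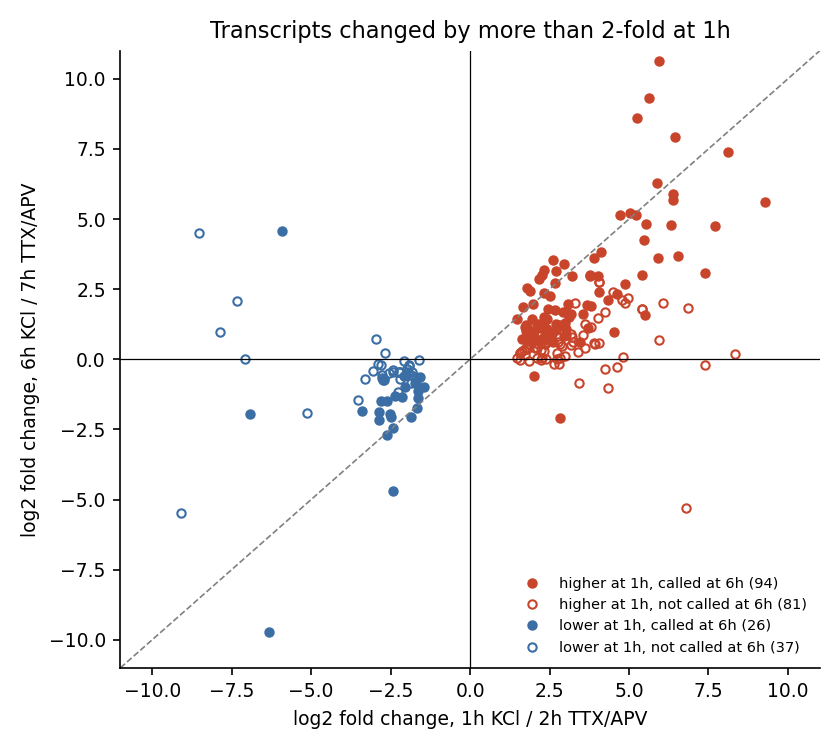
Log2 fold change at 6 h (WT 6h KCl over WT 7h TTX/APV) against that at 1 h (WT 1h KCl over WT 2h TTX/APV) for the 175 transcripts higher (red) and 63 lower (blue) by more than 2-fold at 1 h, from 1 fit over 17 WT libraries; filled points were called at 6 h and the dashed line marks equal change. Of the red points 162 lie above 0 at 6 h and most lie below the dashed line.

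As shares of all TPM, the 175 rises took 0.229 ± 0.0189% in WT 6h KCl neurons (SD, n = 3) and 0.105 ± 0.0178% in WT 7h TTX/APV neurons (SD, n = 4), so their summed level after 6 h of KCl lay between that of 1h KCl and that of either control. The 63 falls took 0.0444 ± 0.00542% in 6h KCl and 0.075 ± 0.00851% in 7h TTX/APV neurons.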

How the data were processed

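RNA-seq files held, per the file headers, an estimated count, a TPM value, a length and an effective length for each of 115270 transcripts. The labels' protocols name total RNA and a stranded kit. Kallisto 0.44.0, which assigns reads to transcripts by probability, stands in the submitters' processing notes beside DESeq2 and the builds mm9 and mm10, without a statement of the transcript annotation. Estimated counts were deposited with decimals and were rounded here. The deposited TPM values were used as levels only.

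Counts were tested per transcript with edgeR 4.0.16 in R 4.3.3 (TMM scaling, filterByExpr by group, robust quasi-likelihood F-test, Benjamini-Hochberg adjustment over all transcripts tested, threshold 0.05) on the 10 libraries compared. The SE is the log2 fold change over the square root of F. Log2 CPM used a prior count of 2. Gene-level tests, gene lists and cell type markers had been planned, and were not analysed here because no table paired the identifiers with genes. The members of the comparison and the lists were chosen with earlier results of these data known. The named transcripts are the first 2 in each direction by the rule in the text. DESeq2 1.42.0 was an alternative, with the others given in the closing section. The fits were checked on simulated counts with the same dispersion for all transcripts and no reads shared among them. That check does not cover scarce transcripts or those at 0 in a whole group.

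The codes were taken to pair the libraries, because the 5 WT codes equal in number the 5 WT biological replicates that the series states. Deviations from the group means of same-code libraries correlated at 0.003 to 0.074 across transcripts, so the pairing is hardly visible in the data. For this reason the counts with the code as a block are printed beside the main ones. Depth was 5873349 to 8015063 estimated counts over the 10 libraries. Floors of 3 counts cover counting error only, since reads were counted without molecular identifiers. ATAC-seq files were not used here.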

Additional observations from a re-analysis of the deposited data

Results flagged for a closer look

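A sample far from the others of its group was found by Dixon's test at the 95% level in 5 of the 21 groups of values tested. For normally distributed values chance alone gives about 1 in 20. Most of the 5 groups held values at or near 0, where that rate does not apply, so the 5 do not show an excess. ENSMUST00000125814.8 had 22.7 TPM in the WT 7h TTX/APV library of code 4-4, with 2.92 TPM in the nearest other library. ENSMUST00000211725.1 had 8.43 TPM in the KO 2h TTX/APV library of code 3-5, with 50.6 TPM in the nearest, and 23.8 TPM in the WT 7h TTX/APV library of code 4-4, with 0 in all others of that group. ENSMUST00000134465.7 had 2.48e-05 TPM in the KO library of code 2-3 and 0.00555 TPM in the WT 1h KCl library of code 3-4, both rounding to 0 counts.

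Responses to KCl that differed between 6 h and 1 h by the interaction contrast (edgeR) numbered 4052 of 46790 transcripts. Among the named ones, the 6 h minus 1 h response was -3.66 for ENSMUST00000023779.7 (adjusted p = 0.0493, or 0.103 with the culture code as a block, and 0.023 to 0.261 without single libraries). It was -8.12 for ENSMUST00000125814.8 (adjusted p = 0.0391, or 0.0875 with the block, and 0.0191 to 0.083 without single libraries). It was 13.06 for ENSMUST00000134465.7 (adjusted p = 0.0102, and 0.00891 to 1 without single libraries). This transcript was seen in 1 of the 7 libraries of the later experiment and was at 0 in all 4 WT 7h TTX/APV libraries. It therefore could not fall at 6 h, and the sign of the difference follows from the fall at 1 h. Neither the fitted size nor the direction has further meaning. Without the WT 6h KCl library of code 4-2 the difference was 8.59, with an adjusted p of 1.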

How the results depend on the processing

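The counts of transcripts called depended on the processing. The fold changes of the 4 named transcripts kept their direction under every alternative run. Each of them was at or near 0 in a whole group, so a change of direction could hardly occur, and this says little about their robustness. Within codes beginning with 3 none of the 4 was called (edgeR adjusted p = 0.151 to 0.312). Of 806 higher, 632 lower and 238 changed by more than 2-fold, an adjusted p under 0.01 left 413, 250 and 140. DESeq2 called 1443 higher and 1280 lower, of 51093 tested. With no filter on low counts 400 of 87009 tested were lower. With all 24 RNA-seq libraries in 1 fit, of 47640 tested, 1342 were lower and 404 passed the 2-fold test. Under the replicate block (culture code) the counts were 436, 220 and 98, of which 619 calls were shared with the 1438. Within codes beginning with 3 they were 0, 0 and 0, and within codes beginning with 4 they were 166, 36 and 59. Without both libraries of code 3-4 they were 456, 309 and 139, and without code 3-7 492, 326 and 154. Without code 4-2 472 were higher and 329 lower, without code 4-3 370 were lower, and without code 4-4 469 were higher and 301 lower. Fewer libraries enter these fits, and for the other differences the cause was not tested. Without any 1 library, or both of 1 code, the counts ranged from 456 to 775, 301 to 511 and 139 to 217. DESeq2 size factors, library totals and an effective length offset kept all 3 counts within 1.5 times.

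The contrast between codes beginning with 3 and with 4 gave 71 calls with DESeq2 and 0 to 8 without single libraries: 7 and 8 without the TTX/APV libraries of codes 3-4 and 3-7, 1 and 3 without those of 4-2 and 4-4, and 1 and 3 without the KCl libraries of 3-4 and 3-7. The share of counts in the most abundant transcripts differed by -0.766 percentage points for the first 1000 (adjusted p = 0.143) and by -1.44 to -1.03 without single libraries. Its paired difference of -1.23 gave an adjusted p of 0.167 by the exact sign-flip test. The weighted length differed by 109 to 146 bases without single libraries, and its paired difference of 127 bases gave an adjusted p of 0.125. With the replicate block, the median share of held-out calls in the same direction was 99.1%, against 95.7% without it. These shares are over unlike sets. The block fits called 102 to 160 higher and 12 to 25 lower, against 456 to 552 and 301 to 370 without the block. The count of different 6 h responses stayed between 3022 and 5564. The 7 leave-outs in the later experiment were added after seeing the data. Counts summed per gene were not run. At this depth, small changes of scarce transcripts were not detectable. Their SE was large (median 0.442 in the lowest of 4 level classes), and after adjustment over all transcripts a call needed a change well above 1 SE.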
